A study of Mus musculus with 22 samples.

Results

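The 10 genes described here are known for their work in the oocyte and the earliest embryo: Nlrp4a, Nlrp4c, Nlrp4f, Nlrp5, Nlrp14, Gdf9, Bmp15, Zp3, Ooep and Padi6. They are a list of gene names picked with earlier results of these data known, and all 10 were found among the 47729 genes counted in each of 22 RNA sequencing libraries of mouse embryonic stem (ES) cells. The study asks whether the duplicated cluster of Dux, a transcription factor gene of the early embryo, is needed for full expression of embryonic genes when DNA methylation is lowered. The untreated set holds 4 Dux n=1 libraries (clones 17, 22, 31 and 40), 3 Dux-KO libraries (clones 15, 22 and 52) and 3 libraries of cells titled E14-chen, called E14 below after the mouse ES cell line. The treated set holds 2 libraries each of N22, KO22 and WT cells given GSK-3484862 for 3 days, and 2 of each given DMSO, the solvent. Both kinds of edited cells were made with CRISPR-Cas9, and the names are read as a single remaining Dux copy (Dux n=1, N22) and no Dux (Dux-KO, KO22). GSK-3484862, shortened to GSK below, is described in the design text as a degrader of DNMT1, the enzyme that maintains DNA methylation through cell division. Its dose is 1 uM in the treatment protocol and 2 uM in the design text. All cells were grown in serum with LIF. N22 and KO22 are read as a single clone each, so that genotype and clone cannot be told apart in the treated set, and the labels do not say whether WT is E14. In the untreated set each edited library is a different clone, so p-values there also carry the spread between clones. The E14 and treated-set libraries of a group differ only in replicate number. No label names separate cultures, so the spread that their p-values measure may be technical.

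Oocytes store proteins and RNA that carry the embryo through its first divisions, and the genes that supply them are called maternal-effect genes because the genotype of the mother decides the outcome. Ooep and Nlrp5, with Tle6, Khdc3 and Zbed3, encode parts of the subcortical maternal complex, a protein assembly under the surface of the egg, and Nlrp4f protein is found in it in the mouse. Padi6 is needed for the cytoplasmic lattices of the egg, Zp3 encodes a glycoprotein of the zona pellucida (the egg coat), and Gdf9 and Bmp15 encode ligands of the TGF-beta family that the oocyte secretes to the granulosa cells around it. Nlrp genes form a family of related copies, several of which are expressed in oocytes.

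The libraries held 15803194 to 19427794 counts. The ES cell label was checked with 10 markers of pluripotent cells, which were all counted in every group and summed to 5187 to 5315 CPM (a gene's count scaled to a common library total) in the GSK libraries, 6613 to 6993 CPM in the DMSO libraries and 5862 to 7769 CPM in the untreated libraries. Of 6 granulosa cell markers, Fshr and Cyp19a1 had 0 counts in all 22 libraries, while Amhr2 had 4.318 to 12.44 CPM, and Foxl2, Amh and Inha had up to 1.191, 0.877 and 1.949 CPM. Of the 4 tested, Foxl2 rose with GSK in N22 and KO22 and Amhr2 fell in all 3 genotypes. Foxl2 had 0 to 5 counts in each DMSO library. It passed the filter on low counts, given below, through its GSK libraries alone, so its calls describe a gene that passed. Counts of Duxf3, the annotated Dux gene, were 11 and 13 in N22 GSK, 0 in KO22 GSK, 18 and 19 in WT GSK, and 0 to 5 in every other library. The untreated library labelled Dux-KO clone 22 goes against its label: it had 5 Duxf3 counts and 49 counts of Zscan4 genes, which respond to Dux, against 0 of each in both KO22 DMSO libraries, which carry the same clone number. Dux-KO clones 15 and 52 had 0 and 1 Duxf3 counts and 5 and 22 Zscan4 counts. The Dux n=1 libraries had 0 to 3 and 5 to 51, and E14 had 0 to 1 and 86 to 92. These counts thus overlapped between untreated Dux-KO and Dux n=1 libraries. Differences of Zp3, Nlrp4a and Ooep that use the library labelled Dux-KO clone 22 are given with and without it. The share of mitochondrial counts also moved with the compound, at 2.66% to 3.20% in GSK libraries and 1.66% to 2.39% in DMSO libraries; its part in the responses below was not tested. In bulk RNA, fewer cells expressing a gene and less RNA per cell cannot be told apart.

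The 10 genes lie on 7 chromosomes (GRCm38, coordinates of the Ensembl 84 annotation). Nlrp4a (ENSMUSG00000040601) spans 26435113 to 26476142, Nlrp4c (ENSMUSG00000034690) 6045161 to 6105150, Nlrp5 (ENSMUSG00000015721) 23385889 to 23441922 and Nlrp14 (ENSMUSG00000016626) 107166990 to 107198102, all on the + strand of chromosome 7. Nlrp4f (ENSMUSG00000032999) lies on the - strand of chromosome 13, at 65177111 to 65205716. Gdf9 (ENSMUSG00000018238) is on the + strand of chromosome 11 at 53431023 to 53437904, and Bmp15 (ENSMUSG00000023279) on the - strand of chromosome X at 6314107 to 6320721. Zp3 (ENSMUSG00000004948) is on the + strand of chromosome 5 at 135980099 to 135988624. Ooep (ENSMUSG00000032346) is on the - strand of chromosome 9 at 78376109 to 78378725, and Padi6 (ENSMUSG00000040935) on the - strand of chromosome 4 at 140727355 to 140742643. Counts are sums over all annotated exons, untranslated parts included, and no exon base of any of the 10 overlaps another annotated gene. Near-identical copies matter for some: of all stretches of 50 bases in its transcripts, 10.7% in Nlrp4c, 6.55% in Nlrp5, 5.95% in Nlrp4f, 2.63% in Nlrp4a and 1.39% in Ooep also occur in transcripts of other genes, mainly Nlrp4e for Nlrp4c, Nlrp4g for Nlrp4f and Nlrp5-ps for Nlrp5. Reads from such stretches could be lost or given to the wrong copy, so values of these genes are uncertain to that extent. The other 5 genes share none.

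Because the compound acts on DNA methylation, which in these cells sits mainly on CpG dinucleotides, the sequences just upstream of the annotated starts are shown for 2 genes that rose in all 3 genotypes (Nlrp4c and Nlrp4f), for the 2 well-measured genes that lost (Nlrp4a and Ooep) and for Zp3, whose response differed between genotypes. They come from RefSeq promoter windows of GRCm38.p6, 250 bases before to 50 bases after the start, which matched 8 of the 10 genes by symbol, all but Nlrp14 and Gdf9. Each is printed 5′ to 3′ on the gene's strand with CpG in capitals, without the bases after a start annotated by either source: chr7:6044911-6045160 (+) for Nlrp4c, chr13:65205717-65205966 (-) for Nlrp4f, chr7:26434863-26435112 (+) for Nlrp4a, chr9:78378726-78378838 (-) for Ooep and chr5:135979855-135980098 (+) for Zp3.
Nlrp4c: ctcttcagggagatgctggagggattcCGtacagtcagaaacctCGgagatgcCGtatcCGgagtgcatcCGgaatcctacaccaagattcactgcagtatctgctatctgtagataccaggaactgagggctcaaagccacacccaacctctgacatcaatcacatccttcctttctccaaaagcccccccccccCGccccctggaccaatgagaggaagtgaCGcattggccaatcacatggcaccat
Nlrp4f: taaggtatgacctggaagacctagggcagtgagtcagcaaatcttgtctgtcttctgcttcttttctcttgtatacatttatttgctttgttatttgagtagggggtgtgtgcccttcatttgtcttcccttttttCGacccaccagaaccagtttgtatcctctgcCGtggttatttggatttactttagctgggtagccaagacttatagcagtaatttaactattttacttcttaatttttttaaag
Nlrp4a: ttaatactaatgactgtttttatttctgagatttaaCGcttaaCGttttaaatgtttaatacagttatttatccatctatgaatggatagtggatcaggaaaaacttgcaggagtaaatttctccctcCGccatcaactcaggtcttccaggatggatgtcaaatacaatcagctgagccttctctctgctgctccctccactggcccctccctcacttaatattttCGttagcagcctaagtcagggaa
Ooep: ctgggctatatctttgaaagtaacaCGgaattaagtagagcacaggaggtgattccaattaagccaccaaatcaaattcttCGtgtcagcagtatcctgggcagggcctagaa
Zp3: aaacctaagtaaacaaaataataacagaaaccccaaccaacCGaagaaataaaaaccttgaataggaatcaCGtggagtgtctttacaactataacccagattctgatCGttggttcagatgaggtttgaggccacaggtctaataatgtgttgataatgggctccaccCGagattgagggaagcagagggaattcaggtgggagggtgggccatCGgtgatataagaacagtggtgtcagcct
Whole 300-base windows held 7 CpG for Nlrp4c, 2 for Nlrp4f, 5 for Nlrp4a, 15 for Ooep, 7 for Zp3, 9 for Nlrp5 (the window at its Ensembl start), 2 for Bmp15 and 2 for Padi6, beside a median of 7 and quartiles of 3 and 20 over all 32851 windows. Other windows held 3 CpG for Nlrp4a and 1 for Nlrp5. For Ooep, 2 of the 15 CpG lie upstream of both annotated starts. Of the printed genes that gained, Nlrp4c was at the median and Nlrp4f below it. Of those that lost, Ooep was above it and Nlrp4a below it. A link between CpG number and response was not tested. Windows were also searched on both strands for 4 short motifs of oocyte and germline regulation. The E-box CANNTG was in the windows of all 8 genes and in 72.3% of all windows, and its form CACGTG, which also matches CANNTG, was in the window of Zp3 and in 7.15% of all windows. TAATTG, the element bound by NOBOX, was in the windows of Ooep and Padi6 and in 8% of all, and TCCCGC, bound by E2F6, was in those of Zp3 and Nlrp5 and in a second window of Nlrp4a, and in 20% of all.

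The genes fell into 3 tiers by level, given as CPM per kilobase of exon. Zp3 and Ooep were the highest, with group means of 8.6 to 21.0 for Zp3 and 6.18 to 19.8 for Ooep. Nlrp4f (0.539 to 3.17), Nlrp4a (0.137 to 1.78), Nlrp4c (0.0327 to 1.47) and Nlrp14 (0.143 to 0.839) formed a middle tier. Gdf9 (0.0662 to 0.332) and Padi6 (0.0212 to 0.192) were low, and Bmp15 and Nlrp5 were near 0, with group means of at most 0.0693 and 0.0169. The order of the 9 groups differed from gene to gene, and is described here in CPM with the SD over libraries. Zp3 was highest in Dux-KO (27.7 ± 4.7, n = 3), followed by Dux n=1, KO22 GSK, N22 GSK, KO22 DMSO and WT GSK, whose ranges overlapped from neighbour to neighbour. N22 DMSO (19.9 ± 0.58, n = 2), E14 (17.7 ± 0.73, n = 3) and WT DMSO (11.4 ± 0.95, n = 2) came below them without overlap between neighbours. Ooep ran from Dux-KO (42.3 ± 21, n = 3), which overlapped WT DMSO (40.7 ± 1.1, n = 2), through Dux n=1, E14 and KO22 DMSO, which overlapped, to N22 DMSO (27.9 ± 0.50, n = 2) and WT GSK (21.7 ± 0.19, n = 2), and was lowest in N22 GSK and KO22 GSK, which overlapped. Nlrp4f ran from N22 GSK (11.2 ± 0.37, n = 2) through WT GSK and KO22 GSK to E14 without overlap between neighbours, and was lowest in N22 DMSO and WT DMSO, which overlapped. Nlrp4a was highest in N22 DMSO (8.64 ± 0.29, n = 2) and WT DMSO (8.61 ± 1.1, n = 2), which overlapped, and lowest in KO22 DMSO and KO22 GSK, which also overlapped and lay below all 7 other groups but for the lowest Dux n=1 library.

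**Figure D1:**
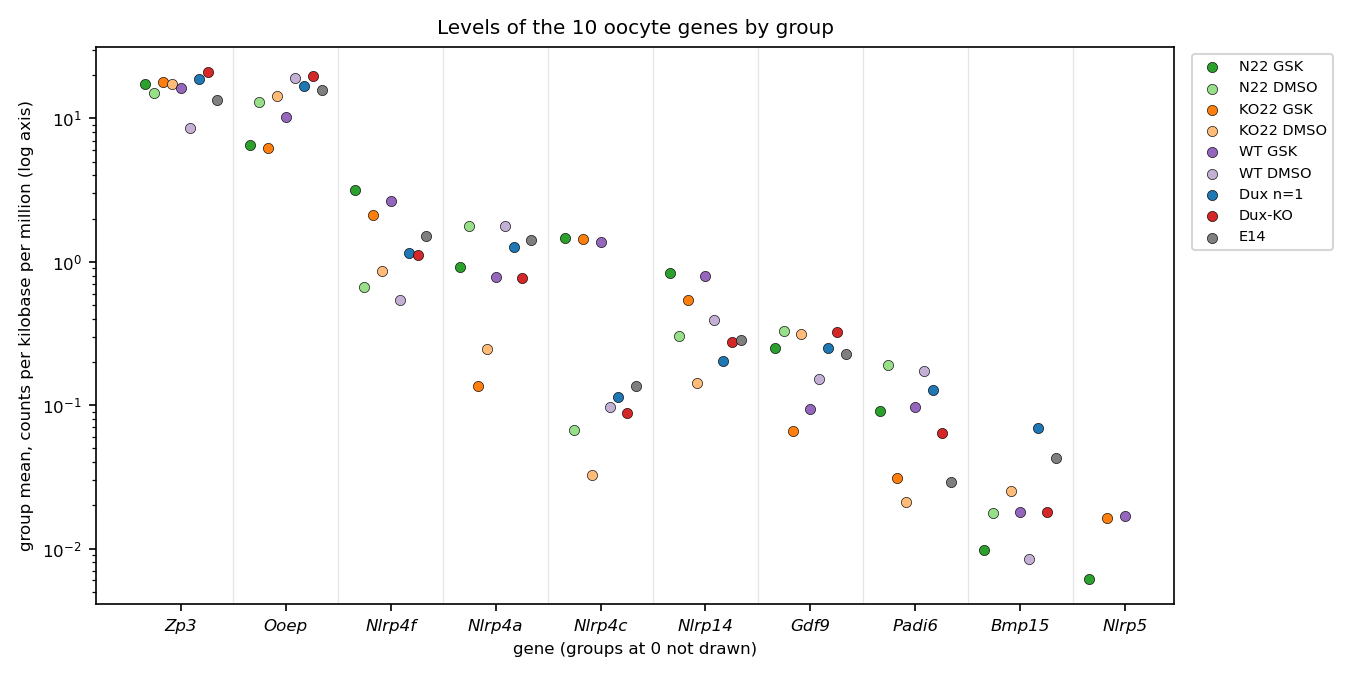
Mean level of each of the 10 genes in the 9 groups, in CPM per kilobase of exon on a log axis, with genes ordered by their mean over groups. Zp3 and Ooep lie at 6.18 or more in all groups, and Nlrp4c splits into the 3 GSK groups, at 1.37 to 1.47, and the 6 other groups, at 0.135 or less.

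Of the 10 genes, 8 passed the filter on low counts in the treated set and were tested, and Nlrp5 and Bmp15 were too rarely counted. Nlrp4c passed it through its GSK libraries alone, and Padi6 through 1 N22 DMSO and 1 WT DMSO library, so that the counts of called genes below are a description of the genes that passed. All adjusted p-values are from edgeR's quasi-likelihood test with Benjamini-Hochberg adjustment over all genes tested, errors of log2 differences are standard errors (SE), and a gene was called at an adjusted p below 0.05. In N22 cells given GSK, 5 of the 8 tested genes were called against DMSO, 3 higher and 2 lower, where 53.0% of all genes were called (26.9% higher, 26.0% lower). In KO22 cells 5 of 8 were called, 3 higher and 2 lower, beside 46.0% of all genes (24.8% higher, 21.2% lower). In WT cells 6 of 8 were called, 4 higher and 2 lower, beside 56.8% of all genes (28.7% higher, 28.1% lower). The share of called genes in the list was thus near the background, and the median log2 difference of the 8 genes was -0.134 in N22, 0.274 in KO22 and 0.0572 in WT, beside 0.00168, 0.00395 and 0.00349 over all genes. What follows concerns how the single genes moved.

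**Figure D2:**
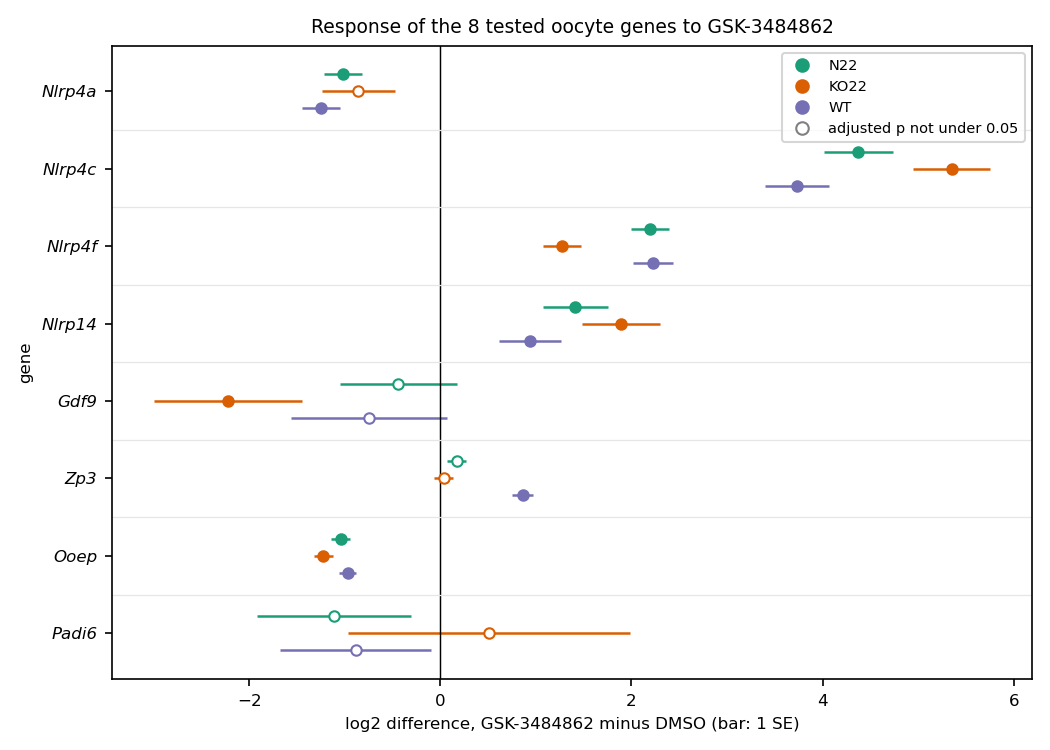
Log2 difference between GSK and DMSO (points, with bars of 1 SE) for the 8 tested genes in N22, KO22 and WT cells, open points not called. Nlrp4c, Nlrp4f and Nlrp14 lie right of 0 and Ooep left of 0 in all 3 genotypes, all called. Nlrp4a and Gdf9 also lie left of 0 in all 3, with open points among them. Zp3 lies near 0 in N22 and KO22 and at 0.86 in WT.

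Nlrp4c, an oocyte-expressed member of the Nlrp4 family, rose most of the 8 tested genes in every genotype. It had 5.79 and 5.995 CPM in N22 GSK, against 0.273 and 0.264 CPM in N22 DMSO. In KO22 it had 5.09 and 6.45 CPM with GSK, against 0.0556 and 0.207 CPM with DMSO. In WT it had 5.66 and 5.32 CPM with GSK, against 0.315 and 0.463 CPM with DMSO. All 6 GSK libraries lay above 5 CPM and all 6 DMSO libraries below 0.5 CPM, with 94 to 123 counts against 1 to 9 counts. The rise was 20.8-fold in N22 (log2 difference 4.38, SE 0.36, adjusted p = 3.9e-17), 40.8-fold in KO22 (5.35, SE 0.40, adjusted p = 2.0e-18) and 13.3-fold in WT (3.73, SE 0.33, adjusted p = 1.2e-15). Since Nlrp4c passed the filter through the group in which it is high, the fit was also made without a filter, where the log2 differences were 4.35 in N22, 5.31 in KO22 and 3.73 in WT (adjusted p at most 6.1e-27). With 5 counts in the KO22 DMSO group, the plain ratio of counts there was 43.1 with an exact 95% counting interval of 18.2 to 134. Responses did not pass the test of a difference between genotypes: KO22 minus WT was 1.62 (95% interval 0.18 to 3.05, adjusted p = 0.0777), N22 minus WT 0.64 (-0.61 to 1.89, adjusted p = 0.602) and N22 minus KO22 -0.97 (-2.53 to 0.58, adjusted p = 0.434). Without KO22 DMSO replicate 2 the KO22 minus WT difference was called, at 2.79 (adjusted p = 0.0482). The 3 GSK groups did not pass the test of a difference in level, with log2 differences of 0.12 (N22 against WT, 95% interval -0.31 to 0.54), 0.01 (N22 against KO22, -0.42 to 0.43) and 0.11 (KO22 against WT, -0.32 to 0.53).

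Nlrp4f, a mouse gene whose protein joins the subcortical maternal complex, also rose in all 3 genotypes. It had 10.9 and 11.4 CPM in N22 GSK, against 2.40 and 2.32 CPM in N22 DMSO. In KO22 it had 7.15 and 7.71 CPM with GSK, against 2.95 and 3.15 CPM with DMSO. In WT it had 10.7 and 7.87 CPM with GSK, against 2.41 and 1.39 CPM with DMSO. The GSK and DMSO libraries did not overlap in any genotype, and the KO22 libraries were the lowest with GSK and the highest with DMSO. The rise was 4.57-fold in N22 (2.19, SE 0.20, adjusted p = 4.2e-15), 2.41-fold in KO22 (1.27, SE 0.20, adjusted p = 1.8e-07) and 4.68-fold in WT (2.23, SE 0.21, adjusted p = 1.4e-14). The response of KO22 was smaller than that of WT by 0.96 on the log2 scale (SE 0.30, adjusted p = 0.0101), and the response of N22 was larger than that of KO22 by 0.92 (SE 0.29, adjusted p = 0.0176). The N22 and WT responses differed by -0.03 (95% interval -0.63 to 0.57, adjusted p = 0.972). The KO22 minus WT difference was not called without WT DMSO replicate 2 (-0.62, adjusted p = 0.167) or WT GSK replicate 1 (-0.72, adjusted p = 0.094). The N22 minus KO22 difference was not called without KO22 DMSO replicate 2 (0.87, adjusted p = 0.0781), KO22 GSK replicate 1 (0.87, adjusted p = 0.0535) or N22 DMSO replicate 2 (0.90, adjusted p = 0.0646), nor by DESeq2 (0.94, adjusted p = 0.0602). Over these 3 tests of a difference between responses, 2 of the 8 tested genes were called for KO22 minus WT (31.8% of all genes), 1 for N22 minus WT (11.1%) and 1 for N22 minus KO22 (18.6%), and the genes were Nlrp4f and Zp3.

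Nlrp14, a maternal-effect gene of the mouse oocyte, rose as well. It had 3.10 and 2.83 CPM in N22 GSK, against 0.874 and 1.27 CPM in N22 DMSO. In KO22 it had 2.33 and 1.52 CPM with GSK, against 0.445 and 0.569 CPM with DMSO. In WT it had 3.13 and 2.50 CPM with GSK, against 1.10 and 1.70 CPM with DMSO. The GSK libraries lay above the DMSO libraries within each genotype, although KO22 GSK replicate 2 was below WT DMSO replicate 2. The rise was 2.67-fold in N22 (1.41, SE 0.34, adjusted p = 0.000277), 3.71-fold in KO22 (1.89, SE 0.41, adjusted p = 8.1e-05) and 1.92-fold in WT (0.94, SE 0.32, adjusted p = 0.00987). The WT call was lost without WT DMSO replicate 1 (0.66, adjusted p = 0.143) or WT GSK replicate 1 (0.77, adjusted p = 0.101). Differences between the 3 responses were not called and lay between -0.48 (N22 minus KO22) and 0.95 (KO22 minus WT).

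Zp3, which encodes a glycoprotein of the zona pellucida, rose in WT alone among the 3 tests. It had 22.0 and 24.2 CPM in N22 GSK, against 19.5 and 20.3 CPM in N22 DMSO. In KO22 it had 26.0 and 21.2 CPM with GSK, against 24.1 and 21.5 CPM with DMSO. In WT both GSK libraries had 21.6 CPM, against 10.7 and 12.04 CPM with DMSO. The WT DMSO libraries thus stood below all 10 others of the treated set, which lay between 19.5 and 26.0 CPM. The rise in WT was 1.82-fold (0.86, SE 0.11, adjusted p = 4.4e-10), while the differences in N22 (0.17, 95% interval -0.03 to 0.37, adjusted p = 0.156) and KO22 (0.04, -0.16 to 0.24, adjusted p = 0.787) were not called. The responses themselves differed: that of N22 was smaller than that of WT by 0.69 (SE 0.15, adjusted p = 0.000668) and that of KO22 was smaller by 0.82 (SE 0.15, adjusted p = 7.8e-06). N22 and KO22 differed by 0.13 (95% interval -0.15 to 0.42, adjusted p = 0.586).

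**Figure D3:**
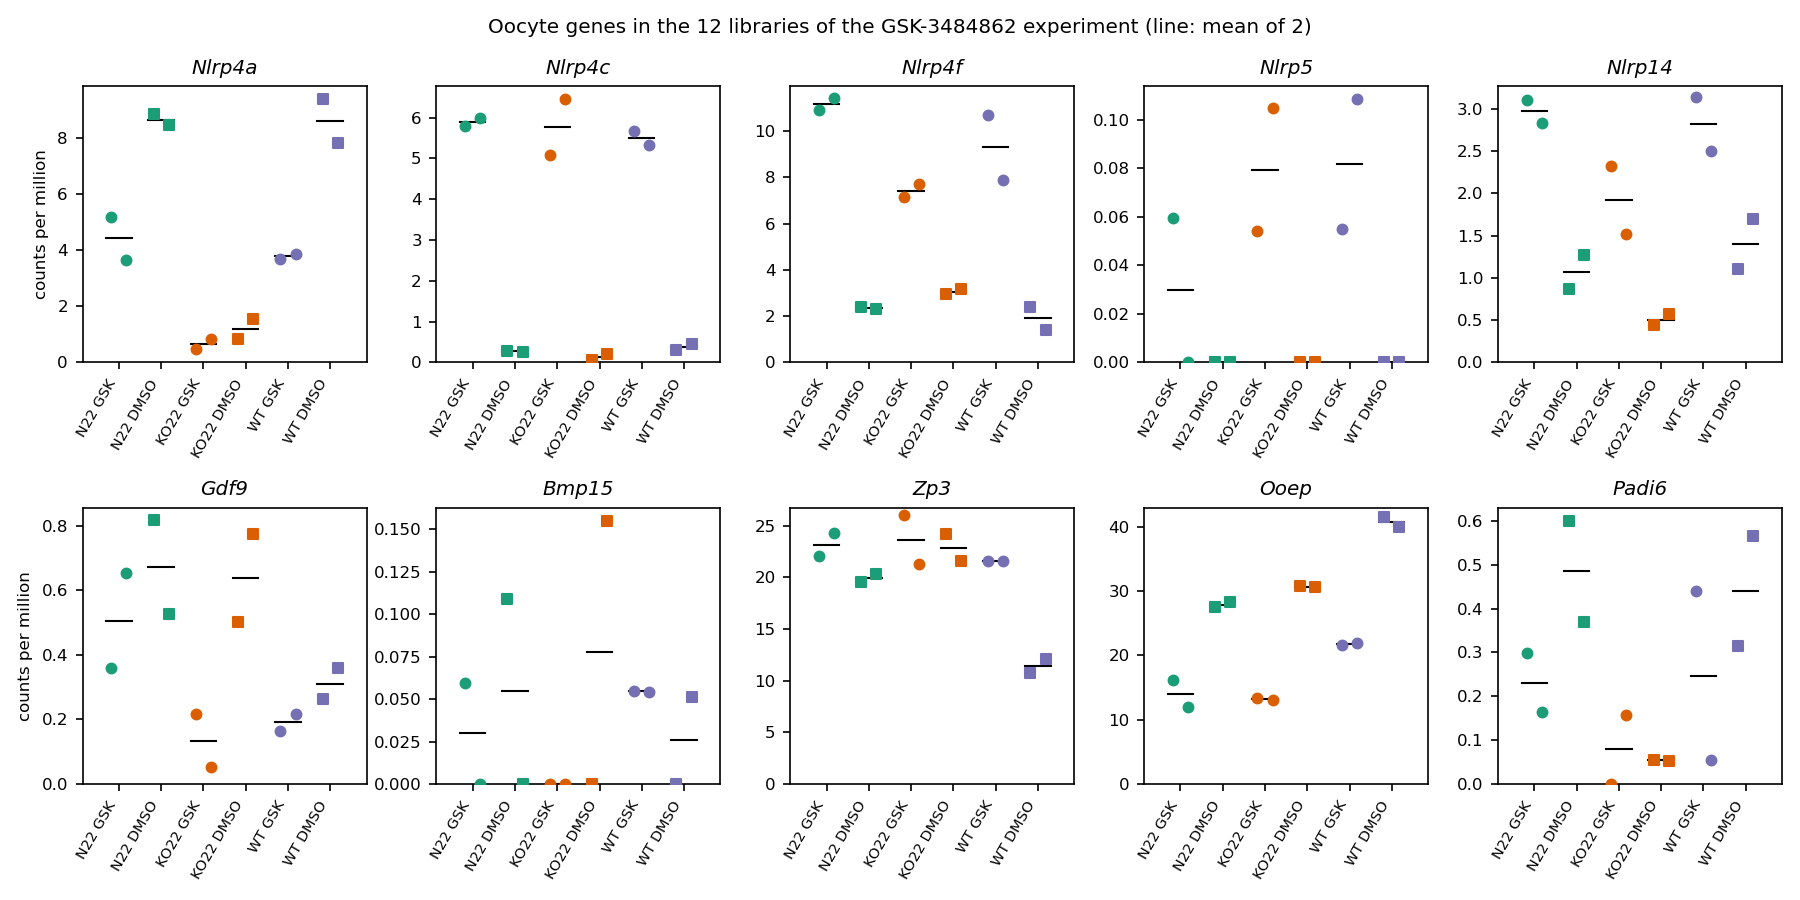
CPM of each of the 10 genes in the 12 treated-set libraries (circles GSK, squares DMSO, black line the mean of 2), each panel with its own linear axis from 0. Nlrp4c separates GSK from DMSO completely, Nlrp4a is low in all 4 KO22 libraries, and Zp3 is low only in the 2 WT DMSO libraries.

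Ooep, a core subunit of the subcortical maternal complex, and Nlrp4a, another member of the Nlrp4 family, went the other way. Ooep had 16.1 and 11.99 CPM in N22 GSK, against 27.5 and 28.2 CPM in N22 DMSO. In KO22 it had 13.4 and 13.0 CPM with GSK, against 30.7 and 30.6 CPM with DMSO. In WT it had 21.6 and 21.9 CPM with GSK, against 41.5 and 39.9 CPM with DMSO. Every GSK library was below every DMSO library, and the WT libraries were the highest under either condition. Ooep fell 2.06-fold in N22 (-1.04, SE 0.10, adjusted p = 2.4e-14), 2.34-fold in KO22 (-1.22, SE 0.10, adjusted p = 2.8e-17) and 1.95-fold in WT (-0.97, SE 0.09, adjusted p = 6.1e-15). Its 3 responses did not pass the test of a difference, with differences of -0.26 (KO22 minus WT, 95% interval -0.52 to 0.01), -0.08 (N22 minus WT, -0.34 to 0.19) and 0.18 (N22 minus KO22, -0.10 to 0.46).

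Nlrp4a had 5.19 and 3.65 CPM in N22 GSK, against 8.85 and 8.44 CPM in N22 DMSO. In KO22 it had 0.487 and 0.839 CPM with GSK, against 0.835 and 1.55 CPM with DMSO. In WT it had 3.68 and 3.85 CPM with GSK, against 9.39 and 7.82 CPM with DMSO. The groups did not overlap in N22 and WT, whereas in KO22 they overlapped, at 9 to 30 counts a library. Nlrp4a fell 2.03-fold in N22 (-1.02, SE 0.20, adjusted p = 1.0e-05) and 2.38-fold in WT (-1.25, SE 0.20, adjusted p = 1.7e-07). In KO22 the difference was -0.86 (SE 0.38) and missed the threshold (adjusted p = 0.0585), but it was called without KO22 DMSO replicate 1 (-1.23, adjusted p = 0.0158) or KO22 GSK replicate 2 (-1.31, adjusted p = 0.037). The responses were not shown to differ, at 0.39 for KO22 minus WT (95% interval -0.50 to 1.29, adjusted p = 0.555), 0.23 for N22 minus WT (-0.33 to 0.80, adjusted p = 0.693) and -0.16 for N22 minus KO22 (-1.07 to 0.75, adjusted p = 0.864). Nlrp4c and Nlrp4a thus moved in opposite directions in N22 and WT.

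The 2 ligands and Padi6 were at the limit of what this depth can show. Gdf9 had 6 and 12 counts in N22 GSK and 15 and 10 in N22 DMSO, 4 and 1 in KO22 GSK and 9 and 15 in KO22 DMSO, and 3 and 4 in WT GSK and 5 and 7 in WT DMSO. It was called lower in KO22 (-2.22, SE 0.78, adjusted p = 0.0149), with a plain ratio of counts of 0.207 and an exact 95% counting interval of 0.0617 to 0.554. That call was lost without KO22 DMSO replicate 2 (-1.87, adjusted p = 0.138) or KO22 GSK replicate 2 (-1.55, adjusted p = 0.19), and with DESeq2 (-2.28, adjusted p = 0.0516). Gdf9 was not called in N22 (-0.44, SE 0.61) or WT (-0.75, SE 0.82), and the KO22 response was not shown to differ from that of WT (-1.47, 95% interval -3.84 to 0.89, adjusted p = 0.373) or N22 (N22 minus KO22 1.78, -0.23 to 3.80, adjusted p = 0.235). Bmp15 had 0 to 3 counts in all 12 treated-set libraries, 3 in the 6 GSK libraries together and 6 in the 6 DMSO libraries together. Padi6 had 5 and 3 counts in N22 GSK and 11 and 7 in N22 DMSO, 0 and 3 in KO22 GSK and 1 and 1 in KO22 DMSO, and 8 and 1 in WT GSK and 6 and 11 in WT DMSO, and its response was called in none of the 3 genotypes (-1.11, SE 0.81 in N22, 0.51, SE 1.47 in KO22 and -0.89, SE 0.79 in WT).

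Nlrp5, the subcortical maternal complex gene also called Mater, had 7 counts in all. They lay in 5 of the 6 GSK libraries, as 1 and 0 in N22 GSK, 1 and 2 in KO22 GSK and 1 and 2 in WT GSK, against 0 in all 6 DMSO and all 10 untreated libraries. A count of 0 allows a level of up to 0.154 to 0.190 CPM in a single library, which is above every value seen with GSK, so no fold is given. Such floors, and the counting intervals above and below, cover counting error alone, since PCR copies of a molecule cannot be told from separate molecules here.

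With GSK in all cells, Nlrp4a, Ooep and Nlrp4f were the members called between genotypes. Of 8 tested genes, 2 were called between KO22 GSK and WT GSK (22.4% of all genes), 1 between N22 GSK and WT GSK (9.65%) and 2 between N22 GSK and KO22 GSK (24.6%), all near the background. The 1606 genes called in all between N22 GSK and WT GSK were 972 without N22 GSK replicate 1, 960 without N22 GSK replicate 2, 957 without WT GSK replicate 1 and 884 without WT GSK replicate 2. Nlrp4a was 5.49-fold lower in KO22 GSK than in WT GSK (-2.46, SE 0.31, adjusted p = 1.7e-09) and 6.46-fold higher in N22 GSK than in KO22 GSK (2.69, SE 0.30, adjusted p = 3.4e-11), with no call between N22 GSK and WT GSK (0.24, 95% interval -0.20 to 0.68). Ooep was lower in KO22 GSK than in WT GSK (-0.68, SE 0.10, adjusted p = 1.9e-07) and lower in N22 GSK than in WT GSK (-0.62, SE 0.10, adjusted p = 6.8e-06). Nlrp4f was higher in N22 GSK than in KO22 GSK (0.57, SE 0.17, adjusted p = 0.00731), a call lost without KO22 GSK replicate 1 (0.52, adjusted p = 0.0787) or N22 GSK replicate 2 (0.54, adjusted p = 0.0599) and with DESeq2 (0.58, adjusted p = 0.0548). Zp3 was called in none of these, with differences of 0.16 (KO22 against WT, 95% interval -0.04 to 0.36), 0.12 (N22 against WT, -0.09 to 0.32) and -0.05 (N22 against KO22, -0.25 to 0.15). The list of 2-cell embryo genes summed to 96.7 and 101 CPM in N22 GSK, 19.7 and 20.9 CPM in KO22 GSK and 170 and 174 CPM in WT GSK. In KO22 GSK nearly all of this sum was a single gene, Ddit4l, at 19.3 to 20.6 CPM. Ddit4l had 28.0 to 30.4 CPM in N22 GSK and 21.3 to 24.1 CPM in WT GSK. Mean Ooep was 14.1 CPM in N22 GSK, 13.2 CPM in KO22 GSK and 21.7 CPM in WT GSK. N22 GSK and KO22 GSK overlapped, with no call between them. Nlrp4a and Nlrp4f were lowest in KO22 GSK, and Nlrp4c, Nlrp14 and Zp3 were not called between GSK groups.

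The DMSO libraries differed more. Between KO22 DMSO and WT DMSO 6 of the 8 tested genes were called (51.9% of all genes), between N22 DMSO and WT DMSO 2 (25.4%) and between N22 DMSO and KO22 DMSO 3 (39.1%). The 4221 genes called in all between N22 DMSO and WT DMSO were 2811 without N22 DMSO replicate 2. Zp3 was higher than in WT DMSO in KO22 DMSO (1.98-fold, 0.99, SE 0.11, adjusted p = 5.1e-12) and in N22 DMSO (1.75-fold, 0.81, SE 0.11, adjusted p = 2.5e-08). Nlrp4a was 7.20-fold lower in KO22 DMSO than in WT DMSO (-2.85, SE 0.24, adjusted p = 2.8e-16) and 7.23-fold higher in N22 DMSO than in KO22 DMSO (2.85, SE 0.24, adjusted p = 4.8e-16), and N22 DMSO and WT DMSO differed by 0.01 (95% interval -0.35 to 0.36). Nlrp4a was thus low in KO22 with and without GSK, but the untreated library labelled Dux-KO clone 22 had 6.73 CPM, and Dux-KO clones 15 and 52 and Dux n=1 clone 40 were also low, at 2.79, 1.70 and 1.34 CPM. Ooep was lower than in WT DMSO in KO22 DMSO (-0.43, SE 0.09, adjusted p = 2.1e-05) and in N22 DMSO (-0.55, SE 0.09, adjusted p = 8.3e-07). Since the responses start from these libraries, each of the contrasts within DMSO shares its samples with the responses above.

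In the same DMSO libraries the low genes gave weaker calls. Nlrp14 was lower in KO22 DMSO than in WT DMSO (-1.47, SE 0.42, adjusted p = 0.00268) and higher in N22 DMSO than in KO22 DMSO (1.08, SE 0.45, adjusted p = 0.0472). The first was lost without WT DMSO replicate 2 (-1.12, adjusted p = 0.0759), and the second without KO22 DMSO replicate 1 (0.92, adjusted p = 0.199), KO22 DMSO replicate 2 (1.27, adjusted p = 0.0895) or N22 DMSO replicate 2 (0.79, adjusted p = 0.311) and under 3 other settings (adjusted p 0.0689 to 0.103). Nlrp4f was higher in KO22 DMSO than in WT DMSO (0.67, SE 0.25, adjusted p = 0.0194), which was lost without KO22 DMSO replicate 2 (0.62, adjusted p = 0.0994) or WT DMSO replicate 2 (0.32, adjusted p = 0.383). Padi6, with 2 counts in KO22 DMSO against 17 in WT DMSO and 18 in N22 DMSO, was called lower in KO22 DMSO than in WT DMSO (adjusted p = 0.0179) and higher in N22 DMSO than in KO22 DMSO (adjusted p = 0.0165). These calls compare the groups through which Padi6 passed the filter, and without a filter the adjusted p-values were 0.0317 and 0.0266. The ratio of counts was 0.121 (exact 95% counting interval 0.0136 to 0.511) for KO22 DMSO over WT DMSO and 9.01 (2.16 to 80.1) for N22 DMSO over KO22 DMSO. The first call was lost without KO22 DMSO replicate 1 (adjusted p = 0.0884), KO22 DMSO replicate 2 (adjusted p = 0.103) or WT DMSO replicate 2 (adjusted p = 0.15) and with DESeq2 (adjusted p = 0.0717), and the second without KO22 DMSO replicate 1 (adjusted p = 0.0917), KO22 DMSO replicate 2 (adjusted p = 0.107) or N22 DMSO replicate 1 (adjusted p = 0.129).

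In the untreated set 7 of the 10 genes passed the filter, without Nlrp5, Bmp15 and Padi6, and nearly all comparisons ended without a call. Between Dux n=1 and E14, 0 of 7 tested genes were called (9.16% of all genes) by edgeR and 0 by DESeq2, with 1 at an unadjusted p below 0.05. Between Dux n=1 and Dux-KO, 0 of 7 were called by edgeR and by DESeq2 with 0 at an unadjusted p below 0.05, and over all 14796 genes 0% were called (0 genes by either tool, 856 genes at an unadjusted p below 0.05 with edgeR). Between Dux-KO and E14, 1 of 7 was called (20.4% of all genes), and it was Zp3. The number of genes called in all between Dux-KO and E14, 3016, was 1977 without Dux-KO clone 15, 3572 without the library labelled Dux-KO clone 22 and 931, 1739 and 1171 without E14 replicates 1, 2 and 3. Between Dux n=1 and E14 it was 1355, and 351 without Dux n=1 clone 17 and 24, 344 and 52 without E14 replicates 1, 2 and 3. The treated set varied less between libraries, with a common biological coefficient of variation of 0.0435, against 0.208 in the untreated set.

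Untreated Zp3 had 20.5 to 28.8 CPM in the 4 Dux n=1 libraries (22.2, 20.5, 28.7 and 28.8), 23.6, 32.9 and 26.7 CPM in Dux-KO clones 15, 22 and 52, and 17.2, 18.5 and 17.4 CPM in E14. All 7 edited libraries lay above the 3 E14 libraries. The difference between Dux-KO and E14 was 1.52-fold (0.61, SE 0.19, adjusted p = 0.0453), while that between Dux n=1 and E14 was 0.47 (95% interval 0.07 to 0.87, adjusted p = 0.118), and that between Dux n=1 and Dux-KO -0.14 (-0.53 to 0.25, adjusted p = 0.937), or 0.05 (adjusted p = 0.933) once the library labelled Dux-KO clone 22 was left out. The Zp3 call was lost without the library labelled Dux-KO clone 22 (0.42, adjusted p = 0.131), without Dux-KO clone 52 (0.65, adjusted p = 0.0753) and without E14 replicate 1 (0.59, adjusted p = 0.142), 2 (0.63, adjusted p = 0.105) or 3 (0.60, adjusted p = 0.134). E14, at 17.2 to 18.5 CPM, did not overlap WT DMSO, at 10.7 and 12.04 CPM, and as separate sets these were not tested against each other.

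Untreated Nlrp4a varied widely within the edited groups. It had 9.87, 7.80, 5.57 and 1.34 CPM in Dux n=1 clones 17, 22, 31 and 40, 2.79, 6.73 and 1.70 CPM in Dux-KO clones 15, 22 and 52, and 7.59, 6.61 and 6.45 CPM in E14. The Dux n=1 clones were spread out, with clone 40 the lowest. The rule given below for a library far from the rest of its group set apart no Dux n=1 library for Nlrp4a. The library labelled Dux-KO clone 22, at 6.73 CPM, lay above Dux-KO clones 15 and 52 and within the range of E14. KO22 DMSO had 0.835 and 1.55 CPM. No difference was called, at -0.90 for Dux-KO against E14 (95% interval -2.22 to 0.42, adjusted p = 0.317), -0.21 for Dux n=1 against E14 (-1.42 to 1.00, adjusted p = 0.838) and 0.69 for Dux n=1 against Dux-KO (-0.56 to 1.94, adjusted p = 0.889). Dux n=1 clone 40 and the library labelled Dux-KO clone 22 were also omitted together. The log2 differences were then -1.70 for Dux-KO against E14, 1.83 for Dux n=1 against Dux-KO and 0.13 for Dux n=1 against E14. Both libraries were picked after their Nlrp4a values were seen, so these values are a description with no test. Without the library labelled Dux-KO clone 22 alone, Nlrp4a was not called, at -1.70 in Dux-KO against E14 (adjusted p = 0.0706) and 1.5 in Dux n=1 against Dux-KO (adjusted p = 0.324), and without Dux n=1 clone 40 alone it was 1.04 in Dux n=1 against Dux-KO (adjusted p = 0.529).

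**Figure D4:**
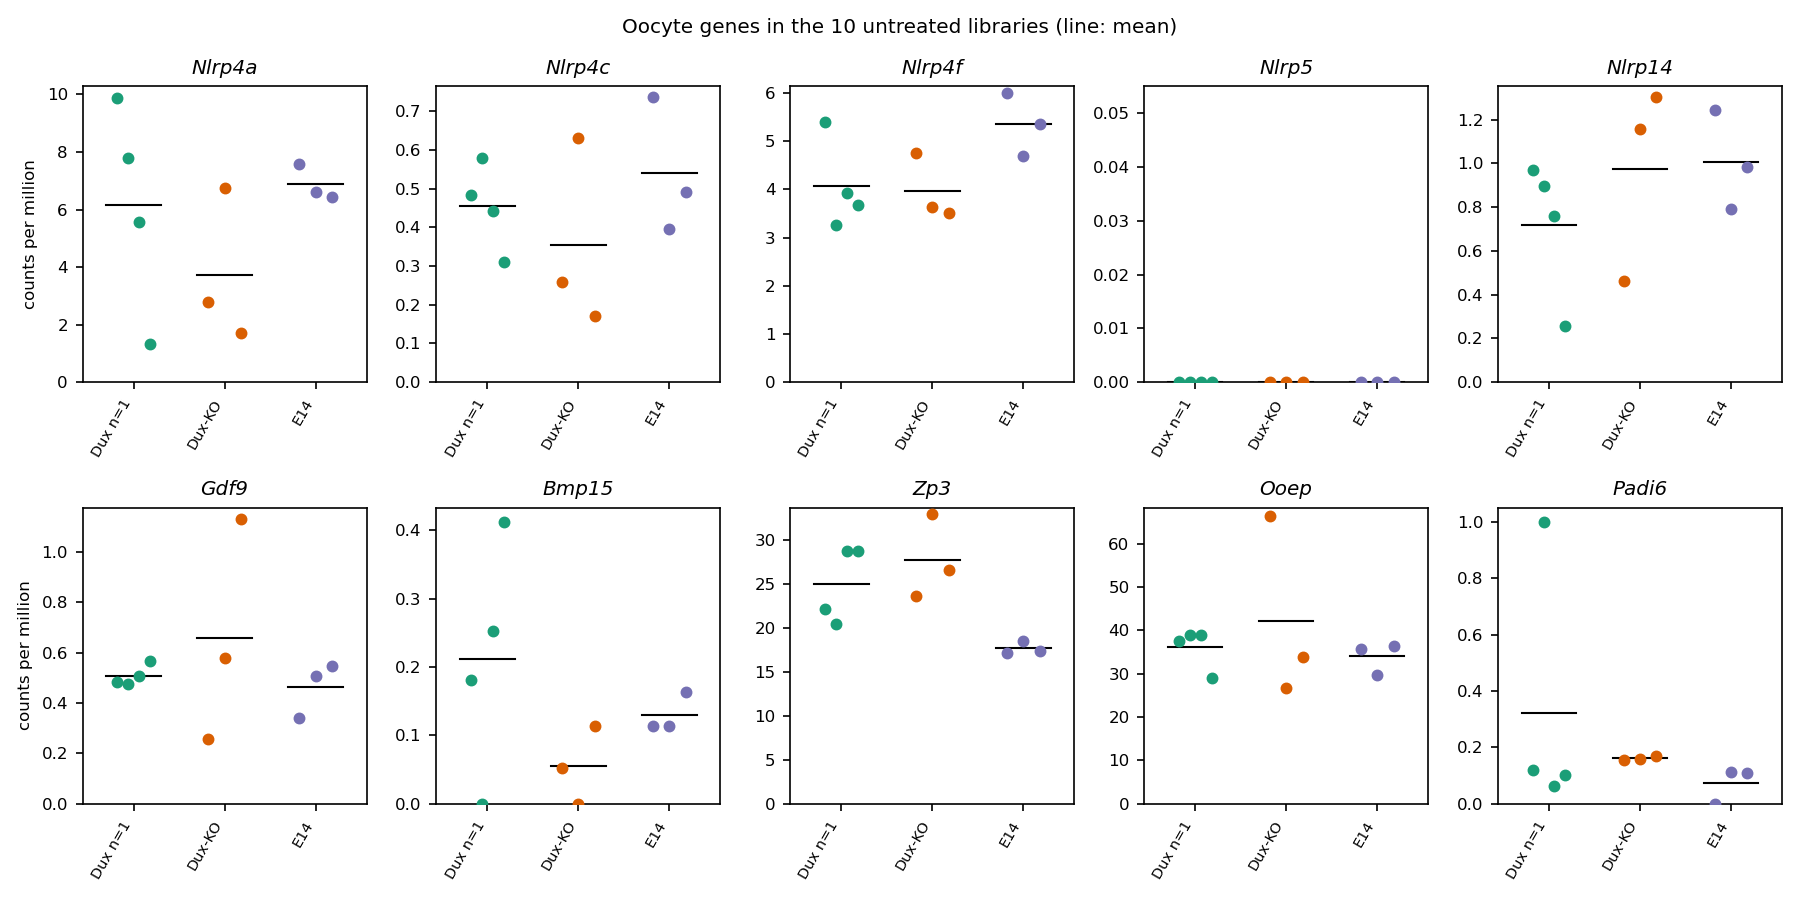
CPM of each of the 10 genes in the 10 untreated libraries (points, black line the mean), each panel with its own linear axis from 0. Zp3 is above E14 in all 7 edited libraries, Nlrp4a spreads from 1.34 to 9.87 CPM among the Dux n=1 clones, and Nlrp5 is at 0 throughout.

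Ooep had 37.6, 38.9, 39.0 and 29.0 CPM in Dux n=1 clones 17, 22, 31 and 40, 66.4, 26.6 and 33.9 CPM in Dux-KO clones 15, 22 and 52, and 35.8, 29.8 and 36.4 CPM in E14. The groups overlapped, and Dux-KO clone 15 stood above the other 9 libraries. No Ooep difference was called, at 0.25 for Dux-KO against E14 (95% interval -0.31 to 0.82), 0.05 for Dux n=1 against E14 (-0.48 to 0.58) and -0.21 for Dux n=1 against Dux-KO (-0.73 to 0.32). Without the library labelled Dux-KO clone 22, Ooep differed by 0.47 between Dux-KO and E14 (adjusted p = 0.173) and by -0.41 between Dux n=1 and Dux-KO (adjusted p = 0.461). Nlrp4f had 3.27 to 5.39 CPM in Dux n=1, 3.51 to 4.75 CPM in Dux-KO and 4.69 to 6.004 CPM in E14. Nlrp4c had 6 to 11 counts a library in Dux n=1, 3 to 12 in Dux-KO and 7 to 13 in E14, all below the 94 to 123 counts of the GSK libraries. Nlrp14 had 5 to 17 counts in Dux n=1, 9 to 23 in Dux-KO and 14 to 22 in E14, and Gdf9 had 8 to 11, 5 to 20 and 6 to 10 counts in the same 3 groups. Bmp15 had 0 to 8 counts in Dux n=1, 0 to 2 in Dux-KO and 2 to 3 in E14. Padi6 had 2, 19, 1 and 2 counts in Dux n=1 clones 17, 22, 31 and 40, 3 in each Dux-KO library and 0, 2 and 2 in E14, so that a single clone held most of its counts.

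The responses of 63 other genes of oocyte and egg biology, in 5 lists, were set beside those of the 10. Of these, 24 were counted well enough to be tested in the treated set. In N22, 12 rose and 8 fell, in KO22 9 rose and 7 fell, and in WT 8 rose and 7 fell, with median log2 differences of 0.35, 0.227 and 0.105, beside 0.00168, 0.00395 and 0.00349 over all genes. Over all genes 26.9% rose and 26.0% fell in N22, 24.8% rose and 21.2% fell in KO22, and 28.7% rose and 28.1% fell in WT, and these shares are the background for each list below. Without N22 GSK replicate 1, 13 rather than 20 were called in N22. Nlrp4g and Bcl2l10, among the 24, needed their GSK libraries to pass the filter, so these tallies describe genes that passed. Of those not tested, Oosp1, Oosp2, Oosp3, Nlrp2, Nlrp4b, Nlrp4d, Obox7, Btg4 and Inhba had 0 counts in all 22 libraries. Of 5 tested genes of the subcortical maternal complex and Nlrp family, 4 rose and 1 fell in N22, 2 rose and 2 fell in KO22, and 3 rose and 1 fell in WT. Nlrp9b, another oocyte-expressed Nlrp gene, had 12.3 and 12.5 CPM in N22 GSK against 3.33 and 3.90 in N22 DMSO and rose in N22 (1.73, SE 0.18, adjusted p = 3.3e-13), KO22 (2.22, SE 0.23, adjusted p = 8.1e-13) and WT (1.87, SE 0.20, adjusted p = 1.3e-12). Nlrp4g, which shares sequence with Nlrp4f, rose in N22 (2.00, SE 0.59, adjusted p = 0.00297), in KO22 (1.94, SE 0.74, adjusted p = 0.0256) and in WT, where it had 40 counts with GSK against 1 with DMSO (a ratio of 42.1, exact 95% counting interval 7.13 to 1.7e+03, adjusted p = 5.3e-06). With 0 to 7 counts in each DMSO library, Nlrp4g passed the filter through its GSK libraries alone, so its calls describe a gene that passed. The KO22 call of Nlrp4g was lost without KO22 DMSO replicate 1 (adjusted p = 0.0954) or 2 (adjusted p = 0.118) or KO22 GSK replicate 1 (adjusted p = 0.383), and with DESeq2 (adjusted p = 0.0667).

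The partners of Ooep in the subcortical maternal complex did not all move with it. Tle6, a core subunit, fell in N22 (-1.15, SE 0.15, adjusted p = 1.8e-09), KO22 (-0.49, SE 0.16, adjusted p = 0.00678) and WT (-0.67, SE 0.15, adjusted p = 7.4e-05), with the KO22 call lost without KO22 DMSO replicate 1 (-0.24, adjusted p = 0.325). Khdc3, another subunit, rose in N22 (0.54, SE 0.15, adjusted p = 0.00161) and fell in KO22 (-0.38, SE 0.13, adjusted p = 0.0145), and these responses differed by 0.92 (SE 0.20, adjusted p = 0.000342). Mean Khdc3 was 7.06, 15.1 and 9.39 CPM in N22, KO22 and WT DMSO, and 10.6, 11.7 and 11.3 CPM in N22, KO22 and WT GSK. The genotypes thus lay further apart with DMSO than with GSK. The fall of Khdc3 in KO22 was lost without KO22 DMSO replicate 1 (-0.34, adjusted p = 0.1) or KO22 GSK replicate 2 (-0.24, adjusted p = 0.239), and with DESeq2 (-0.39, adjusted p = 0.0646). Zbed3 rose in N22 (0.45, SE 0.09, adjusted p = 1.4e-05) and WT (0.35, SE 0.09, adjusted p = 0.000389), and was not called in KO22 (0.15, SE 0.08). Its means were 20.6, 30.1 and 21.25 CPM in N22, KO22 and WT DMSO, and 29.1, 33.8 and 28.4 CPM in N22, KO22 and WT GSK. So in N22, Ooep and Tle6 fell while Khdc3 and Zbed3 rose.

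**Figure D5:**
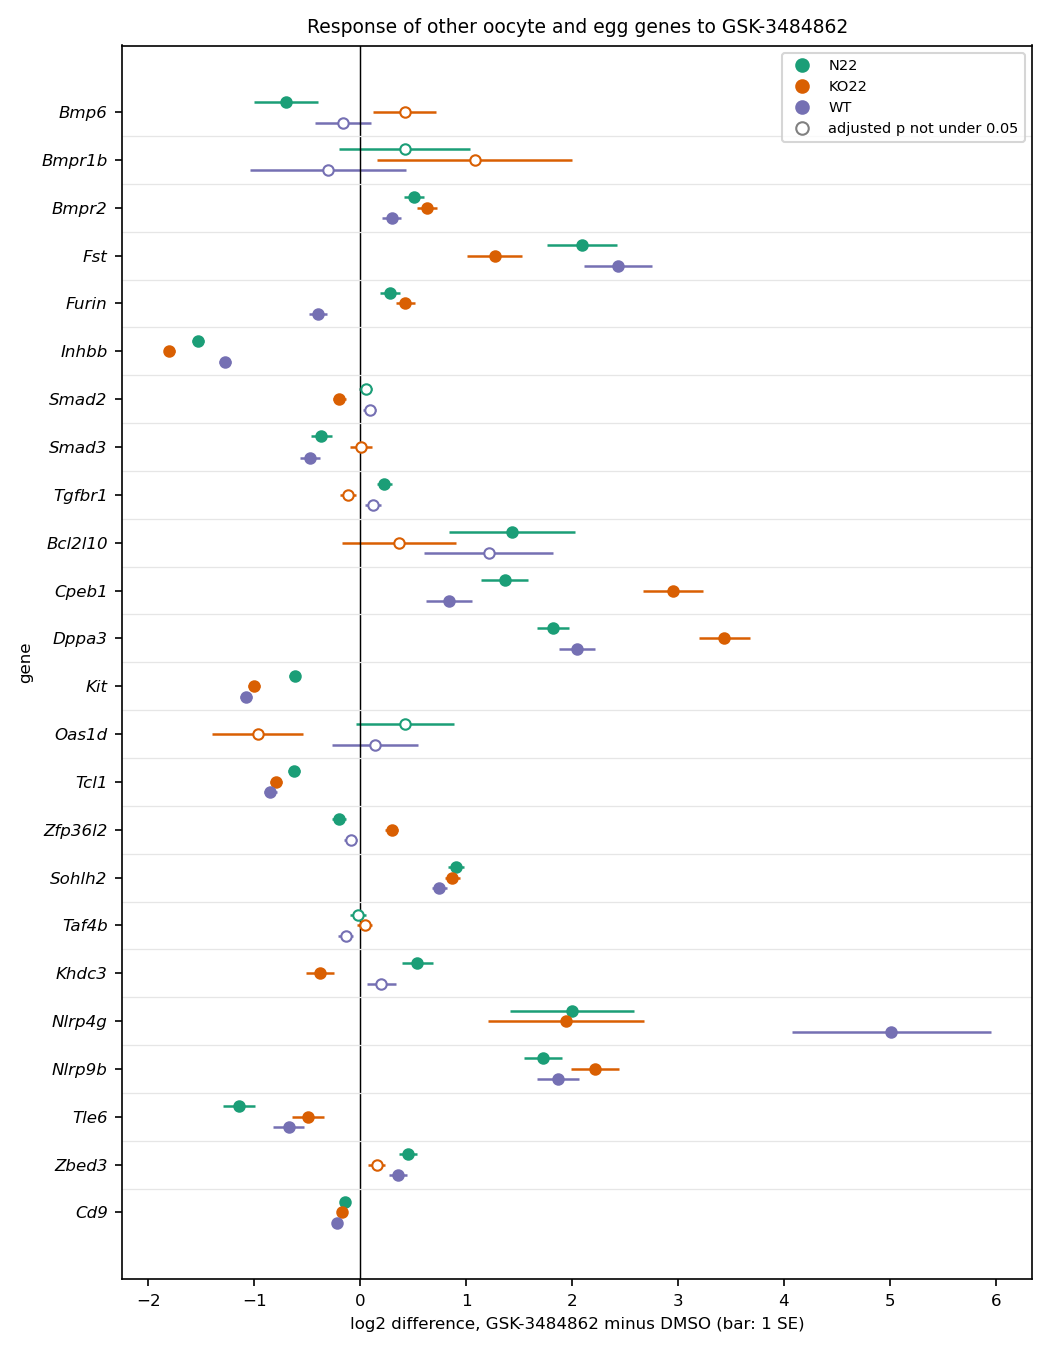
Log2 difference between GSK and DMSO (points, with bars of 1 SE) for the 24 tested genes of 5 other oocyte and egg lists in N22, KO22 and WT cells, open points not called. Dppa3, Cpeb1, Fst, Nlrp9b, Nlrp4g, Sohlh2 and Bmpr2 lie right of 0 in all 3 genotypes, and Inhbb, Kit, Tcl1, Tle6 and Cd9 left of 0, all called. Zbed3 and Bcl2l10 also lie right of 0 in all 3, with open points among them.

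Of the zona pellucida and egg surface list, Cd9, which eggs need to fuse with sperm and ES cells also express, was the 1 tested gene of 8, and it fell slightly in N22 (-0.14, SE 0.05, adjusted p = 0.00577), KO22 (-0.17, SE 0.04, adjusted p = 0.000953) and WT (-0.22, SE 0.05, adjusted p = 3.1e-05). The other zona genes were not tested, so Zp3 was the only gene of the egg coat with enough counts. The Cd9 call was lost in KO22 without KO22 DMSO replicate 1 (-0.09, adjusted p = 0.167) and in N22 without N22 DMSO replicate 2 (-0.09, adjusted p = 0.178) or N22 GSK replicate 1 (-0.13, adjusted p = 0.0524). Of 12 oocyte transcription factors 2 were tested, and Sohlh2 rose in N22 (0.90, SE 0.07, adjusted p = 3.3e-17), KO22 (0.87, SE 0.07, adjusted p = 2.9e-16) and WT (0.75, SE 0.07, adjusted p = 5.0e-14), while the other was not called.

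Of 22 maternal-effect and egg regulators 7 were tested, and Dppa3 and Cpeb1 rose in all 3 genotypes. Dppa3, which protects the maternal genome from demethylation in the mouse zygote, had 18.9 and 20.4 CPM in N22 GSK against 5.33 and 5.41 in N22 DMSO, 7.71 and 9.42 in KO22 GSK against 0.4655 and 1.11 in KO22 DMSO, and 13.1 and 14.7 in WT GSK against 2.73 and 3.73 in WT DMSO. Its response was larger in KO22 than in WT by 1.39 (SE 0.33, adjusted p = 0.000641), unlike that of Nlrp4f. Cpeb1, which regulates translation of stored messages, rose by 1.37 (SE 0.22) in N22, 2.95 (SE 0.28) in KO22 and 0.84 (SE 0.22) in WT on the log2 scale, with adjusted p-values of 3.5e-07, 3.8e-14 and 0.000779. Mean Cpeb1 was 2.36, 0.70 and 2.83 CPM in N22, KO22 and WT DMSO, and 6.28, 5.49 and 5.30 CPM in N22, KO22 and WT GSK. Kit, the receptor through which granulosa cells support the growing oocyte and which ES cells also express, fell by 0.62 in N22, 1.00 in KO22 and 1.08 in WT, and Tcl1 fell by 0.62, 0.80 and 0.85 in the same order, with adjusted p-values of at most 1.2e-14 for all 6 values.

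The TGF-beta list holds receptors, processing enzymes and antagonists that work with Gdf9 and Bmp15, and 9 of its 10 genes were tested although the 2 ligands themselves were near 0. In N22 4 rose and 3 fell, in KO22 3 rose and 2 fell, and in WT 2 rose and 3 fell, where 53.0%, 46.0% and 56.8% of all genes were called in either direction. Bmpr2, the type II receptor of both ligands, rose in N22 (0.50, SE 0.09, adjusted p = 6.4e-06), KO22 (0.63, SE 0.09, adjusted p = 7.2e-08) and WT (0.30, SE 0.09, adjusted p = 0.00357). Fst, which encodes the antagonist follistatin, rose by 2.09 (SE 0.33) in N22, 1.27 (SE 0.26) in KO22 and 2.43 (SE 0.32) in WT. Inhbb, an activin and inhibin subunit, fell by 1.53 in N22, 1.80 in KO22 and 1.28 in WT (SE 0.06, 0.05 and 0.06). Furin, a protease that matures ligands of this family, rose in N22 (0.28, SE 0.09, adjusted p = 0.00766) and KO22 (0.43, SE 0.09, adjusted p = 0.000122) and fell in WT (-0.40, SE 0.08, adjusted p = 7.7e-05), and the responses of N22 and KO22 exceeded that of WT by 0.68 (adjusted p = 8.9e-05) and 0.82 (adjusted p = 5.8e-07). Mean Furin was 25.1, 22.8 and 40.8 CPM in N22, KO22 and WT DMSO, and 31.5, 30.8 and 32.3 CPM in N22, KO22 and WT GSK. The genotypes thus lay further apart with DMSO than with GSK. The KO22 call of Furin was lost without KO22 GSK replicate 1 (0.25, adjusted p = 0.0521). Smad3, which carries the signal of Gdf9, fell in N22 (-0.37, SE 0.10, adjusted p = 0.00121) and WT (-0.48, SE 0.10, adjusted p = 1.7e-05) and not in KO22 (0.00, SE 0.10), with the N22 call lost without N22 GSK replicate 1 (-0.25, adjusted p = 0.0751). Mean Smad3 was 23.4, 16.9 and 28.0 CPM in N22, KO22 and WT DMSO, and 18.7, 17.1 and 21.0 CPM in N22, KO22 and WT GSK.

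Summed levels of other marker lists were also set beside each other with GSK and DMSO. The list of 12 germ cell and meiotic markers summed to 206 and 208 CPM in N22 GSK against 52.4 and 54.7 CPM in N22 DMSO, to 226 and 238 CPM in KO22 GSK against 61.3 and 65.1 CPM in KO22 DMSO, and to 198 CPM in both WT GSK libraries against 65.1 and 66.5 CPM in WT DMSO. Of its 11 tested genes, 8 rose and 2 fell in N22, 8 rose and 1 fell in KO22, and 7 rose and 2 fell in WT, while 26.9%, 24.8% and 28.7% of all genes rose and 26.0%, 21.2% and 28.1% fell in N22, KO22 and WT. Asz1, with 0 to 2 counts in each DMSO library, passed the filter through its GSK libraries alone. Tex101, with 3 to 18 counts in each DMSO library, also needed its GSK libraries to pass. The tally of this list thus describes genes that passed. Primitive endoderm markers summed to 39.4 to 72.8 CPM with GSK and 14.7 to 39.3 CPM with DMSO. Most of this sum was Col4a1, at 27.0 to 53.4 CPM with GSK and 9.83 to 30.1 CPM with DMSO. In KO22, mean Sox7 and mean Gata4 were lower with GSK, at 2.67 against 4.13 CPM and 1.49 against 1.64 CPM. Granulosa cell markers summed to 6.81 to 8.63 CPM with GSK and 7.96 to 14.4 CPM with DMSO. Most of that sum was Amhr2, while mean Foxl2 and mean Inha were higher with GSK in N22, KO22 and WT. The part of these changes in the values of the oocyte genes was not tested.

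Across the 12 treated-set libraries, the named genes most like each well-counted member in log2 CPM were sought among 13884 genes. Among the 3 genes most like Nlrp4c were Nhlrc1 (Pearson r 0.993) and Fkbp6 (0.993), of which Fkbp6 is in the germ cell list. Nlrp4f was most like Ckap2 (0.985), Jam3 (0.983) and Cpxm1 (0.982), and Nlrp14 most like Apc2 (0.969), Tbc1d8 (0.968) and Mpp7 (0.968). Nlrp4a, low in KO22, was most like Tiam1 (0.973), Mapk8ip2 (0.967) and Mycn (0.967). Zp3, low in WT DMSO, was most like Enox1 (0.973), Ttc30a1 (0.972) and Mlx (0.969), and Ooep most like Ptgfrn (0.983), Prdm14 (0.980) and Tada2a (0.980). The 12 libraries are 6 groups of 2, so these values describe a pattern over groups and carry no test. Among the members themselves, Nlrp4c had r of 0.883 with Nlrp4f, 0.884 with Nlrp14 and -0.837 with Ooep, and Nlrp4a and Zp3 had -0.630.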

How the data were processed

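Libraries were made from 1 ug of total RNA per the labels' protocols. Per the submitters' processing notes, fastp 0.23.2, HISAT2 2.1.0, featureCounts 2.0.1, DESeq2 1.40.2 and GRCm38 were used. The deposited counts are raw read counts per gene over exons of the Ensembl 84 annotation, with paired reads and no option for strand or multi-mapping reads, per the file headers. GENCODE M21 gave symbols to 47310 of 47729 identifiers.

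The members and lists were chosen with earlier results of these data known. The untreated set (10 libraries, 14796 genes) and the treated set (12 libraries, 16641 genes) were fitted separately with edgeR 4.0.16 in R 4.3.3 (quasi-likelihood test, TMM, filterByExpr with a count minimum of 10), over 15 comparisons, with Benjamini-Hochberg adjustment over all genes of a comparison and a threshold of 0.05. Standard errors were derived from the F statistics, and the fits were tested on simulated data. CPM are counts over library totals. Alternatives were DESeq2 1.42.0, RLE size factors, no count filter, fits of the compared groups alone, a replicate block and leaving out each library. Named are all 10 members, the called genes of other lists with the smallest p in a response (at most 4 a list and response), and the 3 genes most correlated with each member of at least 100 counts, of which 1 is not reported here. No 2 libraries were identical, and replicates differed beyond counting noise (chi-square per degree of freedom 2.61 to 53.5).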

Additional observations from a re-analysis of the deposited data

Results flagged for a closer look

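Among the 4 Dux n=1 libraries, a single library stood far from the other 3 for 2 of the 9 members tested for this. For normally distributed values the rule sets apart about 1 group in 20 by chance. The libraries are different clones and some members had few counts, so that rate may not hold here. Ooep was lowest in clone 40, at 29.0 CPM (gap to the nearest library over the whole range 0.866). Padi6 was highest in clone 22, at 1.00 CPM from 19 counts, against 2, 1 and 2 counts in clones 17, 31 and 40 (gap over range 0.938).

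Responses to GSK differed between genotypes for 2 of the 8 members tested for this, where 31.8% of all genes were called for KO22 minus WT, 11.1% for N22 minus WT and 18.6% for N22 minus KO22. The Nlrp4f response of KO22 minus that of WT was -0.96 on the log2 scale, and that of N22 minus KO22 was 0.92. Both Nlrp4f calls were lost when single libraries were left out, and the second also with DESeq2. The Zp3 response of KO22 minus that of WT was -0.82, and that of N22 minus WT was -0.69. For Zp3 the GSK libraries of the 3 genotypes were not shown to differ, and the DMSO libraries of WT were the low ones.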

How the results depend on the processing

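Of 1101 values of single genes under alternatives, 1026 kept their direction and their side of the threshold, 49 lost the call, 5 gained it and 21 changed sign. RLE size factors and the absence of a count filter moved no count of called genes by more than 1.5 times, and the median log2 difference of all genes was at most 0.0441 from 0 under TMM and RLE. The cause of the changes below was not tested.

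With DESeq2, 0 members were called for N22 minus KO22 responses, 1 for N22 GSK against KO22 GSK and 1 for N22 DMSO against KO22 DMSO. Over all genes DESeq2 called 2515 for Dux n=1 against E14, 1178 and 2047 for the N22 responses minus those of WT and KO22, 2451 for KO22 GSK against WT GSK and 935 for N22 GSK against WT GSK. With only the compared groups, 1 member was called for N22 DMSO against KO22 DMSO and 2450 genes for Dux n=1 against E14. With Dux-KO clone 22 and Dux n=1 clone 40 omitted, 140 genes were called for Dux n=1 against Dux-KO, with Nlrp4a as the 1 member. These libraries were chosen after their Nlrp4a values were seen, so the result for Nlrp4a is a description and no test. Nlrp4a in Dux n=1 against E14 turned to 0.13.

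Leaving out 1 library at a time gave 0 to 1 called members for Dux-KO against E14, 1 to 3 for KO22 minus WT responses, 0 to 1 for N22 minus KO22 responses, 1 to 2 for N22 GSK against KO22 GSK, 3 to 6 for KO22 DMSO against WT DMSO and 1 to 2 for N22 DMSO against KO22 DMSO. Other oocyte-list genes called in the N22 response numbered 13 to 18. Over all genes the ranges were 931 to 3572 for Dux-KO against E14, 24 to 1237 for Dux n=1 against E14, 884 to 972 for N22 GSK against WT GSK and 2811 to 3048 for N22 DMSO against WT DMSO. Sign changes, in no called value, gave log2 ranges in the KO22 response of -0.12 to 0.18 for Zp3 and -3.16 to 1.43 for Padi6. For KO22 minus WT the range was -0.06 to 0.91 for Nlrp4a. For N22 minus WT they were -0.04 to 0.47 for Nlrp4a, -0.48 to 0.31 for Nlrp4f, -0.20 to 0.65 for Gdf9 and -0.30 to 0.13 for Ooep. For N22 minus KO22 they were -0.69 to 0.29 for Nlrp4a, -0.04 to 0.39 for Ooep and -0.00 to 0.29 for Zp3. In the untreated set they were -0.19 to 0.47 for Ooep in Dux-KO against E14, -0.55 to 0.14 for Nlrp4a and -0.05 to 0.15 for Ooep in Dux n=1 against E14, and -0.25 to 0.05 for Zp3 and -0.41 to 0.26 for Ooep in Dux n=1 against Dux-KO.

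With the replicate block, 5, 5 and 6 members were called in the N22, KO22 and WT responses, as without it, and 0 of 103 gene calls changed. Same-numbered libraries did not deviate together (correlations of -0.02 to 0.03 over 15 group pairs), so the numbers were not taken as pairs. Where a group summed to under 20 counts (as for Nlrp4c with DMSO, Padi6, Bmp15, Nlrp5 and Gdf9 in WT), depth limits what can be seen.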
